A study of Homo sapiens with 9 samples.

Results

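Transforming growth factor beta (TGF-beta), activin and NODAL ligands are secreted signals that act through SMAD2 and SMAD3. Around them 10 genes were examined: the ligand genes NODAL, TGFB1 and TGFB2 and the secreted antagonist genes CER1, LEFTY1, LEFTY2 and FSTL3. The others were the matrix protein genes LTBP2 and TGFBI and the nuclear regulator gene SKIL. All 10 were taken by symbol from the 26475 genes of the RSEM tables, and all were found. PolyA RNA of Hep3B cells, an established line of human liver cancer, was sequenced after 6 h under hypoxia, which all 9 libraries share. A replicated set holds 3 libraries with DMSO, the solvent control, and 3 with a compound labelled DHE, and a dose set holds 1 library each with DMSO, with DHE at a dose labelled high and at one labelled low. No concentration is stated, no library lacks hypoxia, and the labels hold no statement that replicates were separate cultures, so the spread between replicates may be technical. The genes were chosen by name with the differences in expression between DHE and DMSO of both sets in view, and which value led to each choice is not recorded. Their differences between DHE and DMSO are therefore given as a description, without p-values.

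NODAL binds activin receptors together with a coreceptor of the CRIPTO family and drives phosphorylation of SMAD2 and SMAD3, which enter the nucleus with SMAD4 and partners such as FOXH1. The LEFTY proteins and Cerberus, the product of CER1, are secreted blockers of NODAL that are best known from the early embryo, and the LEFTY genes are themselves NODAL targets. TGFB1 and TGFB2 encode TGF-beta ligands, which are secreted in a latent form and which restrain growth of liver epithelium and promote matrix deposition. The SKIL product, SnoN, represses SMAD target genes and is degraded and then induced again by the pathway.

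In the replicated set CER1, TGFB2 and LEFTY2 were more than 2-fold higher with DHE, LTBP2, SKIL and TGFBI were higher by smaller steps, and TGFB1, LEFTY1, FSTL3 and NODAL did not pass the threshold. That threshold is an adjusted p of 0.05 by edgeR's quasi-likelihood test, adjusted by Benjamini-Hochberg over 14492 genes, of which 26.2% passed, 13.4% in the upward direction and 12.8% in the downward direction. All 10 genes passed the filter on low counts, 6 were called higher and 0 lower, and the groups did not overlap for the same 6, where 41.6% of all tested genes had groups that did not overlap. No gene of the 10 was lower at an unadjusted p of 0.05 either, and DESeq2 and limma called 0 lower. The median log2 fold change of the 10 was 0.28, beside 0.00 over all genes tested. Since these genes were chosen with this contrast known, the counts carry no weight of their own.

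The sequence before the transcription start is shown for 3 of the genes that were higher with DHE, because each holds the short box that SMAD proteins recognise. Sequences are the 250 bases before the start in RefSeq's GRCh38.p14, written 5′ to 3′ on the gene's strand. Capitals mark the SMAD box CAGAC, read on either strand (GTCTG is its complement), and the core AATACAC or AATCCAC of the motif of FOXH1, the nuclear partner of SMADs in NODAL signalling. CER1 lies on the minus strand (chr9:14722734-14722983), TGFB2 on the plus strand (chr1:218345086-218345335) and SKIL on the plus strand (chr3:170357465-170357714).
CER1: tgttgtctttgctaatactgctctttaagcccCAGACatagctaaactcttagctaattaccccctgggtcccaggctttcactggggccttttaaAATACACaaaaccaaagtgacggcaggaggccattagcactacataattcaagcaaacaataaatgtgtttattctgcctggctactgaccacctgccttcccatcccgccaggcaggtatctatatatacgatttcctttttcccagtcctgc
TGFB2: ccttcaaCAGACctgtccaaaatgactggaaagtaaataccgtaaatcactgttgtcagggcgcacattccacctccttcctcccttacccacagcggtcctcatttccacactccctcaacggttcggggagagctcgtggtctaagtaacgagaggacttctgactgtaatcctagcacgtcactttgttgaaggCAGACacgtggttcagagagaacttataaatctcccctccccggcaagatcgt
SKIL: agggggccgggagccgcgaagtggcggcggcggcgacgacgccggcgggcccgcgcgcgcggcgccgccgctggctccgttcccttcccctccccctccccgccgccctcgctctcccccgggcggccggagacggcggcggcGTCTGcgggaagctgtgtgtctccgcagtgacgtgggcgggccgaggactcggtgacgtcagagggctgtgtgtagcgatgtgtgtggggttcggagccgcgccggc
The CER1 window held 1 SMAD box, at bases -218 to -214 from the start, and 1 FOXH1 core, at -154 to -148. The TGFB2 window held 2 SMAD boxes, at -243 to -239 and at -53 to -49, and the SKIL window 1 on the opposite strand, at -107 to -103. Of the 8 genes with an entry in the promoter table, NODAL also held a SMAD box, and the windows of TGFB1, FSTL3, LTBP2 and TGFBI held none. The NODAL window (chr10:70441682-70441931, minus strand) lies before a start inside the gene's annotated span, not at its edge. Over 35116 windows of the same length 38.0% held a SMAD box and 3.52% a FOXH1 core, and CER1 was the only gene among the 8 with the latter. The core motif of the hypoxia-inducible factor, ACGTG or GCGTG on either strand, occurred 3 times in the TGFB2 window, 1 of them sharing a base with the proximal SMAD box and overlapping the next match on the other strand. It occurred 1 time each before SKIL and TGFB1, and in 43.2% of all windows. The GC-rich SMAD form GGCGCC stood before FSTL3, LTBP2, TGFBI and SKIL and in 16.4% of all windows. The windows differed in base composition, with 45.2% G and C before CER1, 50.4% before TGFB2 and 80.0% before FSTL3, against a median of 58.0%. A match is a run of letters, not a measured binding site. LEFTY1 and LEFTY2 were named only.

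The libraries held 22167529 to 36267227 counts after rounding. DHE replicate 1 stood apart from the other DHE replicates, with a chi-square per gene of 30.9 and 36.4, where that between replicates 2 and 3 was 5.83 and that among the DMSO replicates 9.12 to 15.7. Without it the same number of genes of the 10 was called, 6 higher and 0 lower. All 8 hepatocyte lineage markers were above 1 TPM (a level per transcript length and library total), with a summed level of 12096 to 12975 TPM in replicated DMSO and 10702 to 12073 TPM in replicated DHE. Of 6 leukocyte markers 4, among them PTPRC, CD3E and CSF1R, stayed under 1 TPM in every library, of 6 fibroblast and stellate markers COL1A2, COL3A1, DCN and ACTA2, and of 5 endothelial markers CDH5, VWF, KDR and TEK. The other members were detected: LYZ at 36.5 to 54.4 TPM in the replicated set and 89.3 to 133 TPM in the dose set, LUM at 8.61 to 12.5 TPM and 15.6 to 45.5 TPM, highest in the library labelled low, PDGFRB at 1.17 to 5.74 TPM over all libraries, CD14 at up to 1.55 TPM and PECAM1 at up to 1.80 TPM. Of 6 markers of pluripotent cells, which are known for NODAL and LEFTY expression, POU5F1 and NANOG stayed under 1 TPM and DPPA4 and ZFP42 were listed at 0, while TDGF1, which encodes a NODAL coreceptor, reached 1.45 TPM. SOX2 was under 1 TPM in the replicated set and stood at 2.48 TPM with DMSO, 4.90 TPM for high and 6.21 TPM for low in the dose set. The summed level of these 6 was 1.5 to 2.3 TPM in replicated DMSO and 1.19 to 2.01 TPM in replicated DHE, and 3.38, 6.71 and 8.0 TPM in the dose set. The part of these levels in the results was not tested.

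Levels of the 10 genes spanned 3 orders of magnitude. In replicated DMSO TGFBI stood highest at 508 ± 38.8 TPM (SD, n = 3), followed by TGFB1 at 319 ± 12.3 TPM, FSTL3 at 162 ± 15.9 TPM and SKIL at 66.7 ± 2.88 TPM, and none of these 4 overlapped with its neighbour in the order. LEFTY1 (16.3 ± 1.33 TPM) and LTBP2 (16.3 ± 1.37 TPM) overlapped. CER1 followed at 6.42 ± 1.08 TPM, and TGFB2 (3.17 to 3.74 TPM) and LEFTY2 (2.79 to 3.82 TPM) overlapped below it. NODAL was last at 0.420 ± 0.279 TPM. With DHE, CER1 averaged 18.1 ± 2.42 TPM and LEFTY1 17.9 ± 2.82 TPM.

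**Figure D1:**
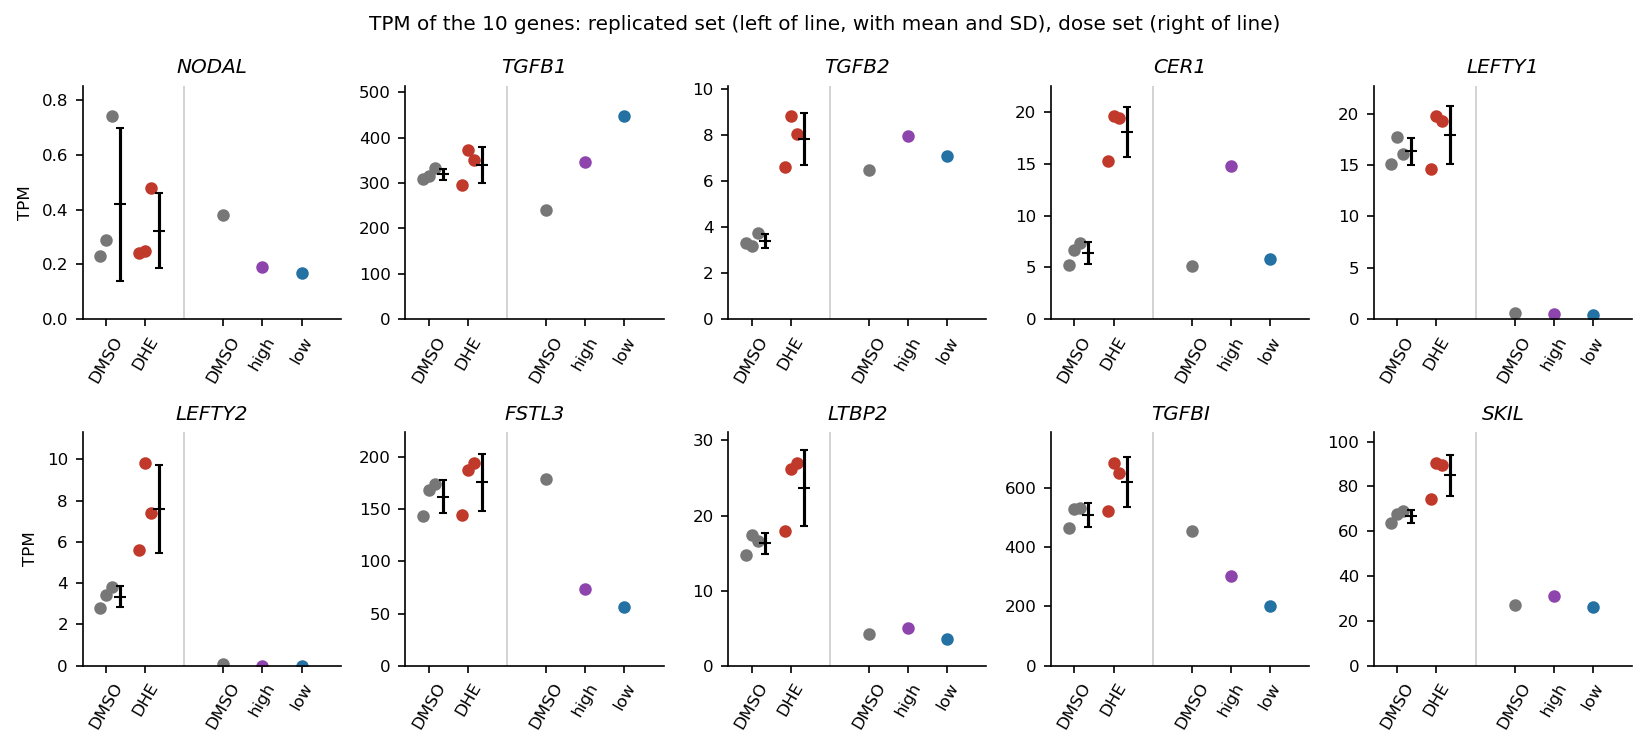
TPM of each gene in the 9 libraries, with a separate linear axis per gene; points are libraries, bars are the mean and SD of 3 replicates, and the dose set with 1 library a group stands right of the grey line. CER1, TGFB2 and LEFTY2 stand higher with DHE in the replicated set, LEFTY1 and LEFTY2 are near 0 in the dose set, and FSTL3 and TGFBI are lower in both DHE libraries of the dose set.

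Among the ligand genes TGFB2 differed most. TGFB2, on chromosome 1 from 218345336 to 218444619, stood at 12.2, 10.7 and 12.5 CPM in the DMSO replicates and at 25.6, 27.6 and 26.1 CPM in the DHE replicates, where CPM are counts scaled to the library total with TMM factors. All 3 DHE libraries lay above all 3 DMSO libraries, and the spread within each group was narrow. The fold was 2.24, with a log2 fold change of 1.16 ± 0.09 (SE), the 92nd highest of all genes tested. TGFB1, on chromosome 19 from 41330323 to 41353922, stood at 466, 432 and 458 CPM with DMSO and at 467, 479 and 464 CPM with DHE. These ranges overlapped, and the log2 fold change was 0.06 ± 0.05. TGFB1 thus kept a level per length far above TGFB2 in both groups, 340 ± 39.3 TPM with DHE against 7.81 ± 1.11 TPM for TGFB2.

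NODAL, on chromosome 10 from 70431936 to 70447951, was barely transcribed. It stood at 0.272, 0.309 and 0.796 CPM with DMSO and at 0.301, 0.252 and 0.496 CPM with DHE, and its highest count was 29, in DMSO replicate 3. That library alone set it above the others, the groups overlapped, and the log2 fold change was -0.39 ± 0.57. Without that library it was 0.27, and leaving out each of the others gave -0.74 to -0.19. A difference in NODAL was not detectable at this depth.

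Of the secreted antagonist genes among the 10, CER1 showed the largest rise. CER1, on chromosome 9 from 14717326 to 14722733, stood at 3.08, 3.60 and 4.03 CPM with DMSO and at 9.40, 10.1 and 10.1 CPM with DHE, from 102 to 147 counts in the former and 250 to 345 in the latter. The DHE libraries lay close together and well above DMSO. The fold was 2.75 (log2 fold change 1.46 ± 0.14), the 42nd highest of all genes tested. Without DHE replicate 1 the log2 fold change was 1.49.

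LEFTY1 and LEFTY2 are close copies that lie on chromosome 1 with 47456 bases and 2 annotated genes between them, LEFTY1 from 225886282 to 225889146 and LEFTY2 from 225936603 to 225941220. LEFTY1 stood at 13.1, 14.1 and 12.9 CPM with DMSO and at 13.3, 14.8 and 14.7 CPM with DHE, with overlapping groups and a log2 fold change of 0.10 ± 0.09. LEFTY2 stood at 3.47, 3.85 and 4.34 CPM with DMSO and at 7.25, 10.5 and 8.05 CPM with DHE, without overlap, and the fold was 2.21 (log2 fold change 1.14 ± 0.16). The difference between the copies was not tested.

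Reads that fit both copies are divided by RSEM, which gave fractional counts for both genes in 5 of these 6 libraries, so the split between them is uncertain. LEFTY2 took 20.9%, 21.5% and 25.1% of the counts of both genes in the DMSO replicates and 35.3%, 41.4% and 35.3% in the DHE replicates. The exact binomial 95% intervals, which cover counting error only, reached up to 28.7% in DMSO replicate 3 and down to 31.3% in DHE replicate 1. Summed over both copies, which does not depend on the split, the level was 16.6, 17.9 and 17.3 CPM with DMSO and 20.6, 25.2 and 22.8 CPM with DHE. The sum was 1.32-fold higher and did not overlap between groups, a step between those of the separate copies.

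**Figure D2:**
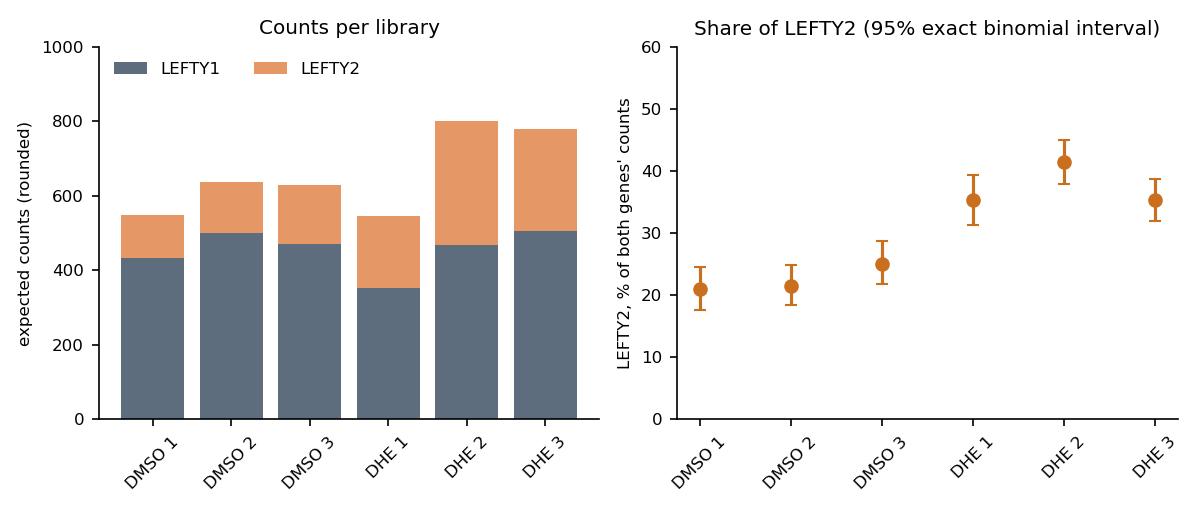
Left, rounded expected counts of LEFTY1 and LEFTY2 in each replicated library (y axis, counts, stacked); right, LEFTY2 as a percent of both with 95% exact binomial intervals. LEFTY2 took 20.9 to 25.1% of the counts with DMSO and 35.3 to 41.4% with DHE.

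FSTL3 encodes a secreted binder of activins and related ligands and lies on chromosome 19 from 676392 to 683385. In the replicated set it stood at 210.2, 223 and 232 CPM with DMSO and at 221, 234 and 248 CPM with DHE. The groups overlapped, and the log2 fold change was 0.08 ± 0.06.

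Both matrix genes were higher with DHE. LTBP2, on chromosome 14 from 74498183 to 74612237, encodes a microfibril protein related to the latent TGF-beta binding proteins. It stood at 81.2, 86.9 and 82.7 CPM with DMSO and at 103, 121 and 129 CPM with DHE (1.41-fold, log2 fold change 0.50 ± 0.07), with DHE replicate 1 the lowest of its group. TGFBI, on chromosome 5 from 136028988 to 136063818, encodes an adhesion protein of the matrix named for its induction by TGF-beta. It stood at 766, 796 and 802 CPM with DMSO and at 905, 964 and 938 CPM with DHE, 1.19-fold higher without overlap (log2 fold change 0.25 ± 0.05).

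SKIL, on chromosome 3 from 170357715 to 170396849, stood at 291, 282 and 286 CPM with DMSO and at 358, 351 and 359 CPM with DHE. The replicates lay within a few CPM of each other, and the groups were apart by 1.24-fold (log2 fold change 0.31 ± 0.05). With limma on log2(TPM + 1) in place of counts, LTBP2 (0.49), TGFBI (0.28) and SKIL (0.34) kept their direction but did not pass the threshold, whereas CER1, TGFB2 and LEFTY2 passed it. In TPM the libraries of the DHE group lay further apart, 74.5, 90.5 and 89.7 TPM for SKIL, with replicate 1 the lowest.

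The dose set showed another order of changes for most of these genes. Only 7 of the 10 reached the minimum of 20 counts in a library, and with 1 library a group no test was made. Intervals are exact binomial 95% intervals and cover counting error only, and both comparisons share the same DMSO library. In the library labelled high 1 gene, CER1, was at least 2-fold higher and 1, FSTL3, at least 2-fold lower, where 0.898% and 3.39% of 13468 genes were past that fold. In the library labelled low 0 were at least 2-fold higher and 2, FSTL3 and TGFBI, at least 2-fold lower, against 2.96% and 6.68% of genes. The median log2 ratio of the 7 genes was 0.13 for high and -0.22 for low, beside 0.00 and 0.01 over all genes.

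CER1 stood at 3.05 CPM with DMSO, 8.02 CPM in the library labelled high and 3.06 CPM in that labelled low, from 78, 205 and 71 counts. It was thus 2.63-fold higher (2.02 to 3.46) at the dose labelled high and near the control level at the dose labelled low, where the interval of the ratio was 0.717 to 1.40. TGFB2 stood at 22.6 CPM with DMSO, 25.7 CPM for high and 22.2 CPM for low. Its ratios of 1.14 (1.02 to 1.27) and 0.981 (0.869 to 1.11) stand beside a 2.24-fold difference in the replicated set, and the sets were not tested against each other. TGFB1 was higher in both, 350 CPM with DMSO against 461 and 579 CPM, 1.32-fold (1.28 to 1.36) for high and 1.65-fold (from 1.61) for low.

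FSTL3 went from 251 CPM with DMSO to 94.8 CPM for high and 71.1 CPM for low, 2.65-fold (2.53 to 2.78) and 3.53-fold (3.35 to 3.73) lower. TGFBI went from 720.4 CPM to 443 and 284 CPM, 1.63-fold (1.59 to 1.66) and 2.53-fold (2.46 to 2.61) lower. For both genes the library labelled low lay further from DMSO than that labelled high. This order was not particular to them: over all genes 6.68% were at least 2-fold lower for low and 3.39% for high. LTBP2 was near its control in the library labelled high, with a ratio of 1.09 (0.972 to 1.23), and 1.33-fold (1.16 to 1.52) lower in that labelled low. SKIL had ratios of 1.05 (up to 1.11) and 0.858 (0.812 to 0.906), and the small ratios of SKIL and TGFB2 moved with the scaling: with library totals the log2 ratio for low went from -0.22 to -0.08 for SKIL and from -0.03 to 0.11 for TGFB2. In the same libraries the summed level of the 8 hepatocyte lineage markers went from 36187 TPM with DMSO to 18832 and 10419 TPM. Much of this sum was ALB, at 22741, 9544 and 5056 TPM. For low all 8 were below DMSO. For high APOB (354 to 449 TPM), TTR (136.5 to 149 TPM) and HNF4A (94.5 to 101 TPM) were above DMSO and the others below. The part of these markers in the differences was not tested.

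**Figure D3:**
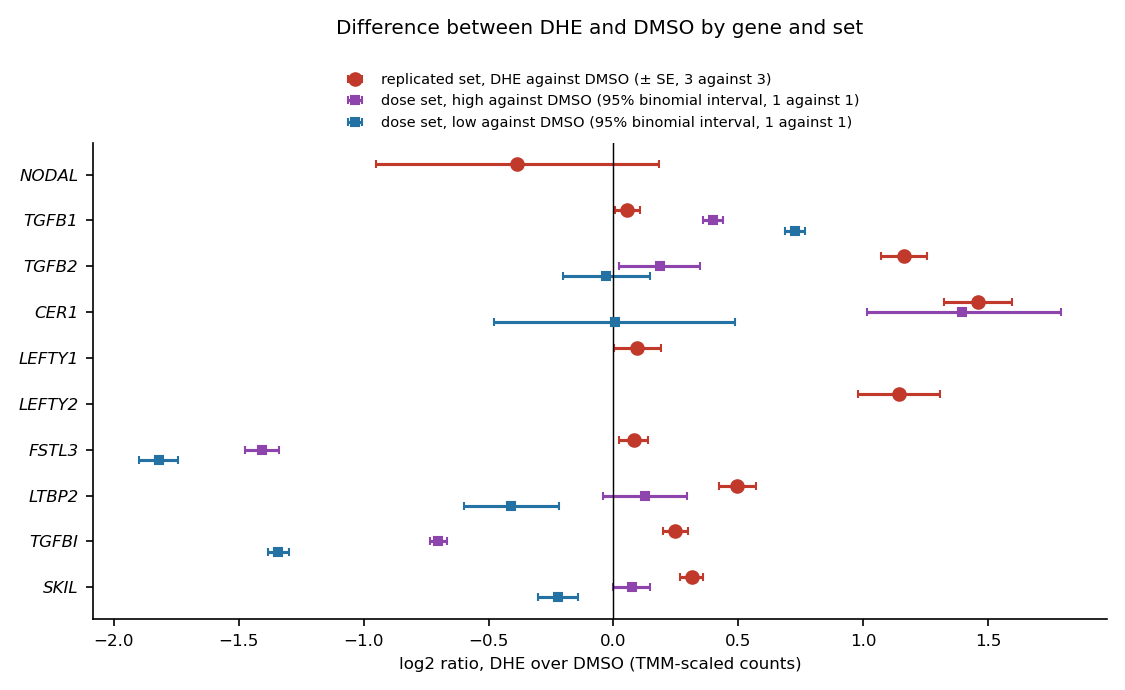
Log2 ratio of DHE over DMSO (x axis) by gene (y axis): circles are the replicated set with SE, squares the dose set with 95% binomial intervals, for the 7 genes with at least 20 counts in a library. CER1 is near 1.4 in the replicated set and in the library labelled high and near 0 in that labelled low. TGFBI lies right of 0 in the replicated set, and FSTL3 close to 0 there, with overlapping groups and not past the threshold. Both lie left of 0 in both dose set comparisons.

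LEFTY1 and LEFTY2 were nearly absent from the dose set. LEFTY1 had 14 counts with DMSO, 10 for high and 8 for low, where the replicated libraries held 354 to 505. LEFTY2 had 2, 0 and 0 counts, and a count of 0 allows up to 0.118 CPM for high and 0.135 CPM for low. NODAL had 11, 5 and 4 counts. The controls of both sets thus differed before any DHE: LEFTY1 was 25.9-fold higher in TPM in replicated DMSO than in the DMSO library of the dose set, LTBP2 3.86-fold and SKIL 2.46-fold higher. TGFBI (1.12-fold higher) and NODAL (1.11-fold higher) were closer, and TGFB2 was lower in the replicated set, at 0.526 times the level. Levels across the sets come from tables that RSEM scaled library by library, the dose set has 1 control, and no test was made. What separated the sets is not given in the labels, so set and handling cannot be told apart.

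The genes whose pattern over the 9 libraries was most like that of each gene were sought among 12906 genes of at least 1 TPM on average. The measure was Pearson's r of log2(TPM + 1) with the mean of each set subtracted. It is a description over 9 libraries that share their controls and their depth. The r values are the highest of a search over many genes and are high partly for that reason. For CER1 they were PPP1R3B (r = 0.979) and TRIM21 (0.974), for TGFB2 CHORDC1 (0.996), which encodes a cochaperone of HSP90, and GJC1 (0.995), a connexin gene. For LEFTY2 they were NINJ1 (0.988) and RASGRP1 (0.987) and for LEFTY1 PTPRB (0.983) and JARID2 (0.979). In the dose set LEFTY2 stood at 0.07, 0 and 0 TPM, so its pattern comes mainly from the replicated libraries. LEFTY1 was low there as well, at 0.63, 0.50 and 0.45 TPM. TGFBI lay closest to the nuclear receptor gene RXRA (0.992) and the collagen prolyl hydroxylase gene P4HA1 (0.990), and FSTL3 to GPSM1 (0.991) and ADCK3 (0.984). SKIL lay closest to the liver homeobox gene PROX1 (0.994) and to AMBP (0.992), LTBP2 to KIRREL (0.986) and MEX3D (0.985), and TGFB1 to EIF5 (0.992) and SNAP23 (0.987). In the dose set (DMSO, high and low) FSTL3 stood at 179, 73 and 57 TPM and TGFBI at 454, 303 and 200 TPM. TGFB1 stood there at 241, 345 and 447 TPM. The patterns of FSTL3, TGFBI and TGFB1 thus come mainly from the dose set, with 1 library a group.

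The rest of the pathway moved in both directions in the replicated set. Of 81 further genes in 6 lists 63 could be tested, and by the same edgeR test, adjusted over all genes, 17 rose and 10 fell, 27.0% and 15.9% of those tested beside 13.4% and 12.8% over the whole table. Their median log2 fold change was 0.06. With limma on log2(TPM + 1) 5 rose and 5 fell. The lists too were chosen with earlier results of these data known. Their shares, here and in the dose set below, therefore carry no weight of their own.

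Receptor genes passed in both directions, whereas all SMADs and nuclear partners that passed were higher. Of 9 tested receptors and coreceptors 3 rose and 2 fell (median 0.07). TGFBR1 and TGFBR2, which encode the signalling receptors of TGF-beta, rose by 0.37 (72.1 ± 3.99 to 93.3 ± 5.49 CPM, edgeR adjusted p = 7.95e-04) and 0.32 (42.6 ± 0.528 to 53.3 ± 3.35 CPM, edgeR adjusted p = 0.00255) on the log2 scale, with SD over 3 replicates. TGFBR3, a coreceptor gene, fell at -0.67 (edgeR adjusted p = 0.0138), but missed the threshold when DMSO replicate 2 (adjusted p = 0.0547) or DHE replicate 3 (0.0560) was left out. Leaving out any library but DHE replicate 1 left 0 or 1 lower receptor. Of 8 SMADs and nuclear partners 4 rose (median 0.17), among them SMAD4 (0.28, edgeR adjusted p = 0.00285), TGIF2, a corepressor gene (0.27, adjusted p = 0.00567), and SMAD2 (0.23, adjusted p = 0.0122). Without DMSO replicate 1 or DMSO replicate 3 only 2 of this list were called, and SMAD2 was not among them (adjusted p = 0.0541 and 0.0567). FOXH1 had at most 27 counts in a replicated library and was not tested.

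Of 8 tested ligands 1 rose and 2 fell (median 0.08). GDF15, a stress-induced cytokine gene, fell at -0.42 (edgeR adjusted p = 8.17e-05) and INHBB, which encodes an activin subunit, at -0.41 (adjusted p = 8.15e-05), while the inhibin subunit gene INHA rose at 0.28 (adjusted p = 0.00755). Of 8 genes for feedback and turnover 2 rose (median 0.05): BAMBI, a decoy receptor gene, by 0.74 on the log2 scale (29.4 ± 1.55 to 49.1 ± 4.49 CPM, SD over 3 replicates, edgeR adjusted p = 3.81e-05) and the inhibitory SMAD gene SMAD7 (0.28, adjusted p = 0.00419). Of 13 genes for extracellular binding, latency and activation 5 rose and 2 fell (median 0.10), and leaving out any library but DHE replicate 2 left 1 lower gene. THBS1, whose product can activate latent TGF-beta, rose at 1.33 (edgeR adjusted p = 2.94e-08), FURIN, a protease that cuts the precursors of these ligands, at 0.40 (adjusted p = 2.74e-04) and the integrin gene ITGAV at 0.38 (adjusted p = 2.55e-04).

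SMAD2/3 target genes passed in both directions. Of 17 tested 2 rose and 4 fell (median 0.03). ANGPTL4, which encodes a secreted inhibitor of lipoprotein lipase and is also known as a hypoxia-induced gene, fell at a log2 fold change of -1.06 (edgeR adjusted p = 1.84e-07). COL1A1, a collagen gene, rose at 0.37 (adjusted p = 5.93e-04). The mesendoderm genes GSC and SOX17 had 0 counts in the replicated libraries, which allows up to 0.0827 to 0.111 CPM depending on the library. Of the other early lineage genes in this list, EOMES had at most 13 counts and was not tested, and MIXL1 (1.03 to 1.55 CPM with DMSO, 1.39 to 1.43 CPM with DHE) and GATA6 (17.1 to 18.8 and 17.7 to 19.6 CPM) were tested, overlapped between DMSO and DHE and did not pass (edgeR adjusted p = 0.803 and 0.638). With limma on log2(TPM + 1) INHA, TGFBR1, TGFBR2, TGFBR3, SMAD2, SMAD4, TGIF2, SMAD7 and COL1A1 did not pass the threshold, with adjusted p between 0.0617 for TGFBR1 and 0.362 for SMAD2. In the dose set 58 of the 81 genes reached the count minimum, with medians of -0.04 for high and -0.12 for low. For high 3 (5.17%) were at least 2-fold higher and 2 (3.45%) lower, beside 0.898% and 3.39% of all genes. For low 7 (12.1%) were higher and 3 (5.17%) lower, beside 2.96% and 6.68%. Some of the higher genes rest on few counts. TDGF1 (13, 30 and 26 counts with DMSO, high and low) and NRROS (4, 17 and 23) were among them in both comparisons. ITGB8 (12, 21 and 49) was among them for low only. THBS1 (log2 ratios of 1.31 for high and 1.18 for low), TGFBR1 (0.44 and 0.49) and TGIF2 (0.34 and 0.27) were higher in the dose set too. So was SMAD2 (0.15 and 0.38), whereas ITGAV (0.01 and 0.12) was near its control level for high. TGFBR3 (-0.40 and -0.98) and ANGPTL4 (-0.59 and -0.84) were again lower. BAMBI (-0.46 and -0.96), SMAD7 (-0.67 and -0.96) and COL1A1 (-1.08 and -0.95, from 100, 46 and 46 counts) were lower, opposite to the replicated set. INHA (-0.20 and -0.71) also turned lower, and SMAD4 (-0.02 and -0.05) was near its control level. TGFBR2 (0.28 and -0.05), FURIN (0.23 and -0.11), GDF15 (-0.04 and 0.42) and INHBB (0.02 and -0.08) had opposite signs for high and low. With library totals the median log2 ratio of all genes moved from 0.00 to 0.08 for high and from 0.01 to 0.15 for low. The sign of ratios smaller than these moves is therefore uncertain.

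**Figure D4:**
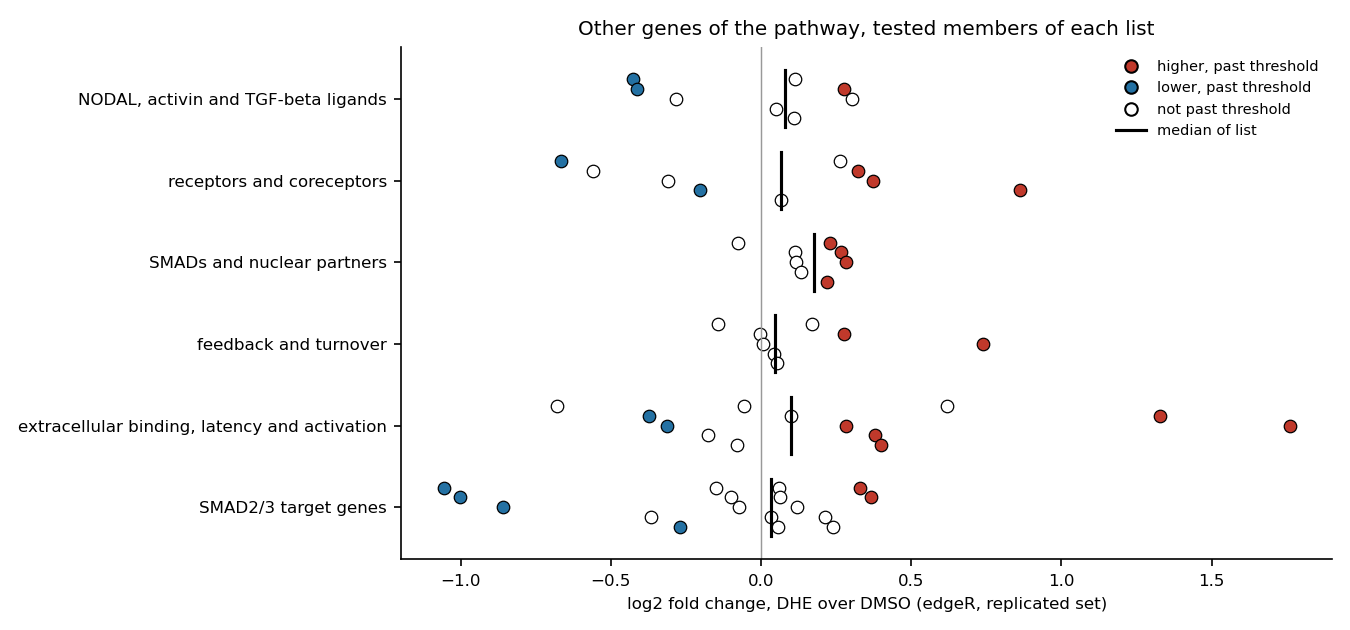
Log2 fold change of DHE over DMSO in the replicated set (x axis) for 63 tested pathway genes in 6 lists (y axis); filled points passed edgeR's threshold, open points did not, and black lines are list medians. In the list of SMAD2/3 targets 4 filled points lie left of 0 and 2 right of it, while all 4 filled points of SMADs and nuclear partners lie right.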

How the data were processed

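PolyA RNA libraries of Hep3B cells were grouped by sample title into a replicated set (DMSO and DHE, n = 3 each) and a dose set (1 library each). The deposited tables hold RSEM expected counts, which are estimated and not normalized, and TPM values, scaled by the authors for transcript length and total, as the deposited RSEM headers name them. Per the submitters' processing notes the build is GRCh38. The effective length in the deposited tables was not used. For the aligner and strand setting nothing is given in the sources used; overlapping genes and close copies are therefore uncertain.

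Expected counts were rounded and fitted with edgeR 4.0.16 in R 4.3.3 (TMM, default filter by group, quasi-likelihood F-test, two-sided) over all genes of the replicated set, with Benjamini-Hochberg adjustment at 0.05. The fit was tested on simulated data. In the dose set log2 ratios of TMM-scaled CPM used a prior count of 2, and printed folds of single genes are ratios of CPM without it. A count of 0 allows 3 counts. Alternatives were DESeq2 1.42.0, limma 3.58.1 on log2(TPM + 1) or with 0.1 as the pseudocount, edgeR with other scaling or filters, the replicate number as a block, and leaving out each library. Figures were drawn with matplotlib 3.10.9. Genes and transcripts were placed with RefSeq's GRCh38.p14 by accession, where 25653 of 26475 genes matched, and 8 of the 10 genes were matched by symbol in its promoter table.

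The 10 genes, the pathway lists and the marker lists were chosen with earlier results of these data known. For each list the text names up to 3 genes with the smallest p among those past the threshold without overlap, and all 10 genes are named. Of the genes this rule takes, 1 is not reported here. FOXH1, GSC, SOX17, EOMES, MIXL1 and GATA6 were chosen after their values were seen.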

Additional observations from a re-analysis of the deposited data

Results flagged for a closer look

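TGFBI was higher in all 3 DHE libraries of the replicated set than in any DMSO library (log2 fold change 0.25), whereas in the dose set it was lower in both DHE libraries, with log2 ratios of -0.70 for the library labelled high and -1.34 for that labelled low. It stood out because the direction was opposite in the sets. The difference between the sets was not tested, and the dose set has 1 library a group.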

How the results depend on the processing

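Of the 10 genes 6 were called higher and 0 lower with RLE, upper-quartile or no scaling factors, with DESeq2, without a filter or with a stricter one (NODAL was then not tested), and without each library in turn. Limma on log2(TPM + 1) and on log2(TPM + 0.1) called 3 and 3 higher, and the cause was not tested. Over all genes these scales called 497 and 486 higher and 448 and 436 lower in place of 1945 and 1858, and of the other pathway genes 5 and 5 higher and 5 and 5 lower in place of 17 and 10. Leaving out 1 library gave 1329 to 2032 higher and 1242 to 1948 lower genes, and 13 to 19 higher and 7 to 9 lower pathway genes. The samples share only a replicate number: deviations from the group means of same-numbered libraries correlated at 0.0852, 0.0526 and -0.0476 across genes. With the replicate block 2260 genes were higher and 2191 lower, and of the 10 genes 6 and 0. Not every library correlated best with its own number. In the dose set another prior count or scaling left the number of the 10 genes past 2-fold as it was. Library totals moved the median log2 ratio of all genes from 0.00 to 0.08 for high and from 0.01 to 0.15 for low. With library totals and with TPM, the log2 ratio of TGFB2 for low turned from -0.03 to 0.11 and 0.13, that of SKIL for low went from -0.22 to -0.08 and -0.06, and that of SKIL for high from 0.07 to 0.15 and 0.19. Those of TGFB1, FSTL3 and TGFBI kept their direction but also left their counting intervals. NODAL was limited by depth in both sets.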
